A study of Mus musculus with 6 samples.

Results

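The ectodysplasin pathway of embryonic mouse skin was described here by 8 genes: Eda, Edar, Eda2r, Tnfrsf19, Edaradd, Traf6, Nfkbia and the placode inhibitor Dkk4. They were chosen by name from the 28000 genes of the count matrices. Each gene was followed by counts of unique molecular identifiers (UMIs), as CPM (UMIs of the gene scaled to 1000000 UMIs of the class in its library) and as the share of cells with a UMI, in keratinocytes, fibroblasts and other cell classes set by marker sums. A keratinocyte had at least 10 UMIs of Krt5, Krt14, Krt15 and Epcam together, and a fibroblast at least 15 UMIs of Col1a1, Col1a2 and Col3a1 together. This gave 7597 keratinocytes and 22541 fibroblasts of 40653 cells kept.

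Ectodysplasin, encoded by Eda, is a ligand of the tumour necrosis factor (TNF) family that the epidermis needs to form hair placodes, the epithelial thickenings that start a hair follicle. It binds the receptor Edar, which signals through the adaptor Edaradd and Traf6 to release the transcription factor NF-kB from its inhibitor, encoded by Nfkbia. Dkk4 is a secreted antagonist of Wnt signalling made by placode cells, and is known as a target of both Wnt and Edar signalling.

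The study dissociated dorsolateral and flank skin of CD1 mouse embryos, pooled from 3 to 4 embryos per library, sorted live cells that exclude DAPI, and counted 3′ ends of transcripts with the 10x Genomics method. The loss-of-function (LOF) embryos, with 1 library at embryonic day (E) 14.5 and 1 at E13.5, carried the alleles PDGFRalphaCreER(Lo), beta-catfl/fl and mTmG. Their Cre recombinase is driven by Pdgfra, a receptor of dermal mesenchyme, and acts after tamoxifen, which was given at E11.5. Floxed beta-catenin is removed where Cre acts, and mTmG turns from a red Tomato to a green GFP reporter there. Controls, labelled WT, had 2 libraries at E14.5 and 2 at E13.5. The tamoxifen protocol stands in the labels of every sample, so whether controls received the drug is not clear. Nothing in the labels says that the control libraries of a stage came from separate litters, so p-values speak for these libraries only. The tests pool spread over genes, so a very small p-value does not rest on the spread of its own gene between libraries alone.

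The libraries held 53461986 to 86446575 UMIs, with a median of 8192 to 11323 per cell. The 2 reporter rows of the matrices went against a plain reading of the control label. Row eGFP stood at 320 CPM in fibroblasts of E14.5 LOF, against 5.25 and 92.9 in E14.5 controls 1 and 2. At E13.5 it stood at 349 in LOF fibroblasts, against 3.03 and 118 in controls 1 and 2. In keratinocytes, tdTomato stood at 62.3 in E14.5 LOF, against 39.6 and 307 in the E14.5 controls, and at 992 in E13.5 LOF, against 1038 and 827 in the E13.5 controls. Reporter UMIs were thus counted in every library labelled WT, and GFP in fibroblasts of both controls numbered 2. The class, Dkk4 and genotype tests were also run without both controls numbered 2, and all tests without each library in turn. Beta-catenin (Ctnnb1) was 199 CPM in E14.5 LOF fibroblasts, against 184 and 178 in controls, and 248 in E13.5 LOF fibroblasts, against 195 and 180. In keratinocytes it was lower in LOF, at 288.4 in E14.5 LOF, against 319.5 and 343.9 in controls. At E13.5 it was 287.7 in LOF keratinocytes, against 469.1 and 385.0 in controls. These 3′ counts do not check the deletion of internal exons. Classes held their defining markers: 7 other keratinocyte genes, such as Trp63 and Perp, summed to 1073 to 2733 CPM in keratinocytes and to 13.9 to 116 in fibroblasts. In turn, 7 other fibroblast genes, such as Pdgfra and Dcn, summed to 293 to 543 CPM in keratinocytes, against 2679 to 5734 in fibroblasts. The part of such RNA in the low keratinocyte values of Eda and Eda2r was not tested. Cells of any class within 20% of the keratinocyte threshold, on either side of it, numbered 30 to 241 per library. Those within 20% of the fibroblast threshold numbered 80 to 627. Libraries shared 44 to 101 cell barcodes per pair.

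In GRCm38 the protein-coding genes lie at chrX:99975606-100400762 (Eda, plus strand), chr10:58600789-58675654 (Edar, minus), chrX:97333840-97377216 (Eda2r, minus), chr14:60963875-61046490 (Tnfrsf19, minus), chr13:12472632-12520438 (Edaradd, minus), chr2:101678429-101701669 (Traf6, plus), chr12:55489410-55492647 (Nfkbia, minus) and chr8:22624043-22627547 (Dkk4, plus).

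Of the 8 members, 7 had an upstream region in the RefSeq table, all but Dkk4. Sequence is shown for the 3 of them with the highest ratio between Dkk4-positive and Dkk4-negative keratinocytes, with motifs of the 2 pathways that meet in the placode. All are from RefSeq on GRCm38.p6, 250 bases that end at the transcript start, 5′ to 3′ on the strand of the gene, in lower case with the motif match in capitals. The Nfkbia line is chr12:55492648-55492897, minus strand, with an NF-kB consensus match of 10 bases. The consensus GGGRNNYYCC (R is A or G, Y is C or T, N is any base) is met there on the other strand, so the capitals show its reverse complement. The Edar line is chr10:58675697-58675946, minus strand, with the TCF/LEF core CTTTGA. The Tnfrsf19 line is chr14:61037988-61038237, minus strand, at 1 of its 2 annotated starts, with the same core on the other strand, TCAAAG.
Nfkbia: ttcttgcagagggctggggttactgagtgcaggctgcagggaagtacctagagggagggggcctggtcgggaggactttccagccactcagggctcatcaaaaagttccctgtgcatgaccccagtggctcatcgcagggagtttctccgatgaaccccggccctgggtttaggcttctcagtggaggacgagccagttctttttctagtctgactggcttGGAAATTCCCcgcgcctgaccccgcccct
Edar: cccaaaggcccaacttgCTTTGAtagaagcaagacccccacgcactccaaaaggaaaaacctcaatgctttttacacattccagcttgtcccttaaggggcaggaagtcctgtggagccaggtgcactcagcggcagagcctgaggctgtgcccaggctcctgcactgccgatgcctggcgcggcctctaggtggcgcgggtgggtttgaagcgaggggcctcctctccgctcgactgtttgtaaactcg
Tnfrsf19: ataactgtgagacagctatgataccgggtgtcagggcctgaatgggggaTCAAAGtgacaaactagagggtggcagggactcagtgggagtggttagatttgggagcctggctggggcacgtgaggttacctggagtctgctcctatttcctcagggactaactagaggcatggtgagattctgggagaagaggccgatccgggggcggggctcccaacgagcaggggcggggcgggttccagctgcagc
Counted from the start, the matches begin at position -29 in Nfkbia, -233 in Edar and -201 in Tnfrsf19. Both strands were searched. An NF-kB match was present in 7.25% and the TCF/LEF core in 13.8% of 32851 upstream regions of the same length in the table. The regions of Eda, Eda2r, Edaradd and Traf6, and the other start of Tnfrsf19, held neither motif in this window, and no region held both. A match is a run of letters and not a measured binding site.

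Eda, the ligand, was counted at a low level in both main classes. In keratinocytes it stood at 10.4 CPM in E14.5 LOF and at 9.39 and 3.79 in E14.5 controls 1 and 2, and at 2.63 in E13.5 LOF and 3.11 and 3.30 in the E13.5 controls. In fibroblasts it stood at 9.78 in E14.5 LOF and 13.8 and 4.47 in E14.5 controls, and at 2.45 in E13.5 LOF and 3.33 and 3.77 in E13.5 controls. The high values were those of E14.5 LOF and E14.5 control 1, in both classes, while E14.5 control 2 stood near the E13.5 libraries. Keratinocytes and fibroblasts did not pass the test for Eda, with a log2 difference of -0.08 ± 0.12 (SE, 6 libraries; edgeR adjusted p = 0.557). Its 3′ counts do not separate the splice forms that bind different receptors.

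Traf6, the ubiquitin ligase downstream of the receptor, was high in the same libraries. Keratinocytes held 16.6 CPM in E14.5 LOF and 17.1 and 7.71 in E14.5 controls, and 5.52 in E13.5 LOF and 5.96 and 5.88 in E13.5 controls. Muscle cells, with at least 3 UMIs of Myod1, Myf5, Myog, Pax7 and Chrna1 together, lie outside both classes. There Traf6 stood at 16.1 in E14.5 LOF and 21.1 and 6.45 in E14.5 controls, and at 5.59 to 7.30 in the E13.5 libraries. For Eda the muscle values were 9.71 in E14.5 LOF and 7.70 and 2.02 in E14.5 controls, and 2.39 to 3.26 at E13.5. A higher count of both genes thus went with E14.5 LOF and E14.5 control 1 in unrelated classes, and what else set those libraries apart was not tested.

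Edar, the receptor, was counted mainly in keratinocytes, which held 76.7% to 86.5% of the Edar UMIs of a library. It stood at 10.6 CPM in E14.5 LOF keratinocytes, against 15.6 and 17.2 in E14.5 controls, and at 8.32 in E13.5 LOF, against 16.7 and 14.3 in E13.5 controls. In fibroblasts it was 0.0829 to 0.246 across libraries. The lowest keratinocyte library lay far above the highest fibroblast library, and the log2 difference was 6.20 ± 0.13 (SE; edgeR adjusted p = 1.77e-08). In no other class did its median over libraries reach 1 CPM. With each cell thinned to 3000 UMIs, 3.44% of E14.5 LOF keratinocytes had an Edar UMI, against 4.28% and 5.33% in controls. At E13.5 the shares were 1.96% in LOF (exact 95% interval 1.08 to 3.27%) and 4.93% and 4.52% in controls (3.66 to 6.48% and 3.33 to 5.98%). Without thinning, 9.74% to 20.5% of keratinocytes had an Edar UMI. In fibroblasts, which should lack the gene, the thinned share was 0.0227% to 0.157%, at a median of 7272.5 to 10147 UMIs per cell, against 10229.5 to 15883 in keratinocytes. Intervals here cover counting error only.

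Dkk4 was likewise counted mainly in keratinocytes. Across libraries it ranged from 6.02 to 85.1 CPM there and from 0.0207 to 1.21 in fibroblasts, a log2 difference of 6.41 ± 0.38 (edgeR adjusted p = 2.48e-06). Keratinocytes held 74.2% to 93.4% of the Dkk4 UMIs of a library and fibroblasts 0.845% to 5.50%. Among the other classes, only erythroid cells had a Dkk4 median above 1 CPM, at 7.29. That value rests on 3 UMIs over 2 libraries, of which 1 had none. Of the 40 Dkk4 UMIs in E14.5 LOF fibroblasts, 18 came from a single cell. Between 59.4% and 78.3% of all cells with a Dkk4 UMI in a library were keratinocytes by the marker sum. The share was 77.6% in E14.5 LOF, against 64.9% and 59.4% in E14.5 controls. At E13.5 it was 78.3% in LOF, against 72.35% and 78.2% in controls. The keratinocyte class thus left out a larger share of Dkk4-positive cells in E14.5 controls, and its part in the Dkk4 values by stage and genotype was not tested. Of the 25 and 47 Dkk4-positive cells of no class in E14.5 controls 1 and 2, 18 and 36 had 3 to 9 keratinocyte marker UMIs, below the 10 required.

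**Figure D1:**
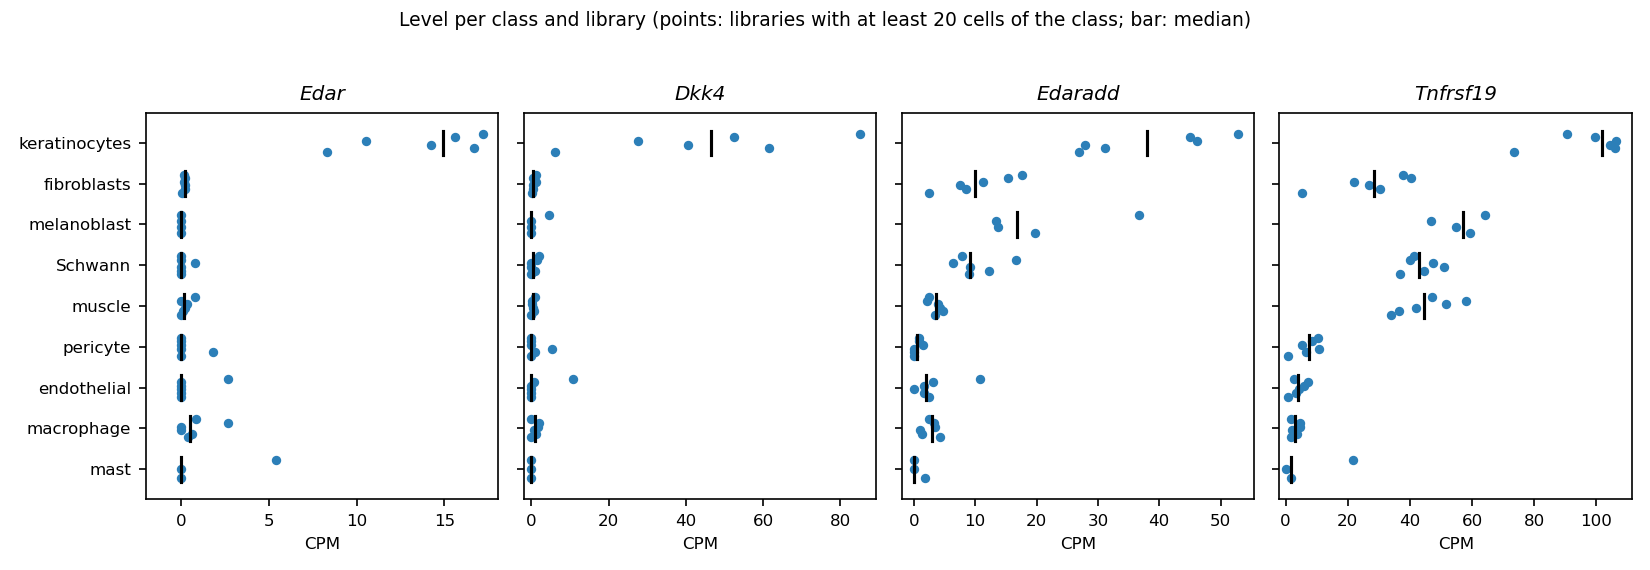
Level of Edar, Dkk4, Edaradd and Tnfrsf19 (CPM) by cell class, with 1 point per library that held at least 20 cells of the class and a bar at the median. In the other 8 classes plotted the medians of Edar and Dkk4 stay under 1 CPM. Edaradd and Tnfrsf19 are also counted in fibroblasts, melanoblasts, Schwann cells and muscle cells. Erythroid cells and chondrocytes, with at least 20 cells in only 2 libraries each, are not plotted. The Dkk4 median of erythroid cells was 7.29 CPM, from 3 UMIs.

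Tnfrsf19, also called Troy, is a TNF receptor family member related to Edar and expressed in many embryonic tissues. It was highest in keratinocytes, with a median of 101.9 CPM over 6 libraries. Melanoblasts (57.1), muscle cells (44.5), Schwann cells (42.9) and fibroblasts (28.6) followed. The ranges of melanoblasts (46.7 to 64.3), muscle cells (33.9 to 58.1) and Schwann cells (36.8 to 51.1) overlapped. The keratinocyte range (73.5 to 106) lay above them. Keratinocytes exceeded fibroblasts by 2.10 ± 0.31 on the log2 scale (edgeR adjusted p = 0.000447). Edaradd, the adaptor, had a keratinocyte median of 38.1, a melanoblast median of 16.7 and a fibroblast median of 9.91, and keratinocytes exceeded fibroblasts by 2.10 ± 0.24 (adjusted p = 9.03e-05). The keratinocyte and melanoblast ranges of Edaradd overlapped.

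Eda2r, the receptor of the other ectodysplasin splice form, was rare everywhere and was the only member called lower in keratinocytes. It ranged from 0.178 to 0.895 CPM in keratinocytes and from 0.528 to 2.49 in fibroblasts, a log2 difference of -1.22 ± 0.32 (edgeR adjusted p = 0.00711). It rested on 57 UMIs in all keratinocytes and 318 in all fibroblasts. Nfkbia, which encodes the NF-kB inhibitor and is itself induced by NF-kB, was counted in all 11 classes, with medians over 6 libraries of 124 in keratinocytes, 118 in endothelial cells and 116 in macrophages, whose ranges overlapped. Mast cells, with at least 20 cells only in the 3 E14.5 libraries, had a median of 192. Keratinocytes exceeded fibroblasts by 1.35 ± 0.14 for Nfkbia and by 0.66 ± 0.09 for Traf6 (adjusted p = 3.80e-05 and 0.000235).

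In that comparison 6 members were called higher and 1 lower of the 8, against a background in which 75% of 14883 genes were called, 34.1% higher and 40.9% lower. All 7 calls held without the controls numbered 2, where Edar differed by 6.23 and Dkk4 by 6.44. Other pathway genes were mixed: of 22 genes of Edar and NF-kB signalling, 11 were higher and 4 lower in keratinocytes, with a median log2 difference of 0.29 against -0.07 over all genes. Rel, an NF-kB subunit, differed by 1.37 and Traf3, a TRAF adaptor, by 1.43, whereas Traf4 differed by -1.36 and Traf5 by -1.84.

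**Figure D2:**
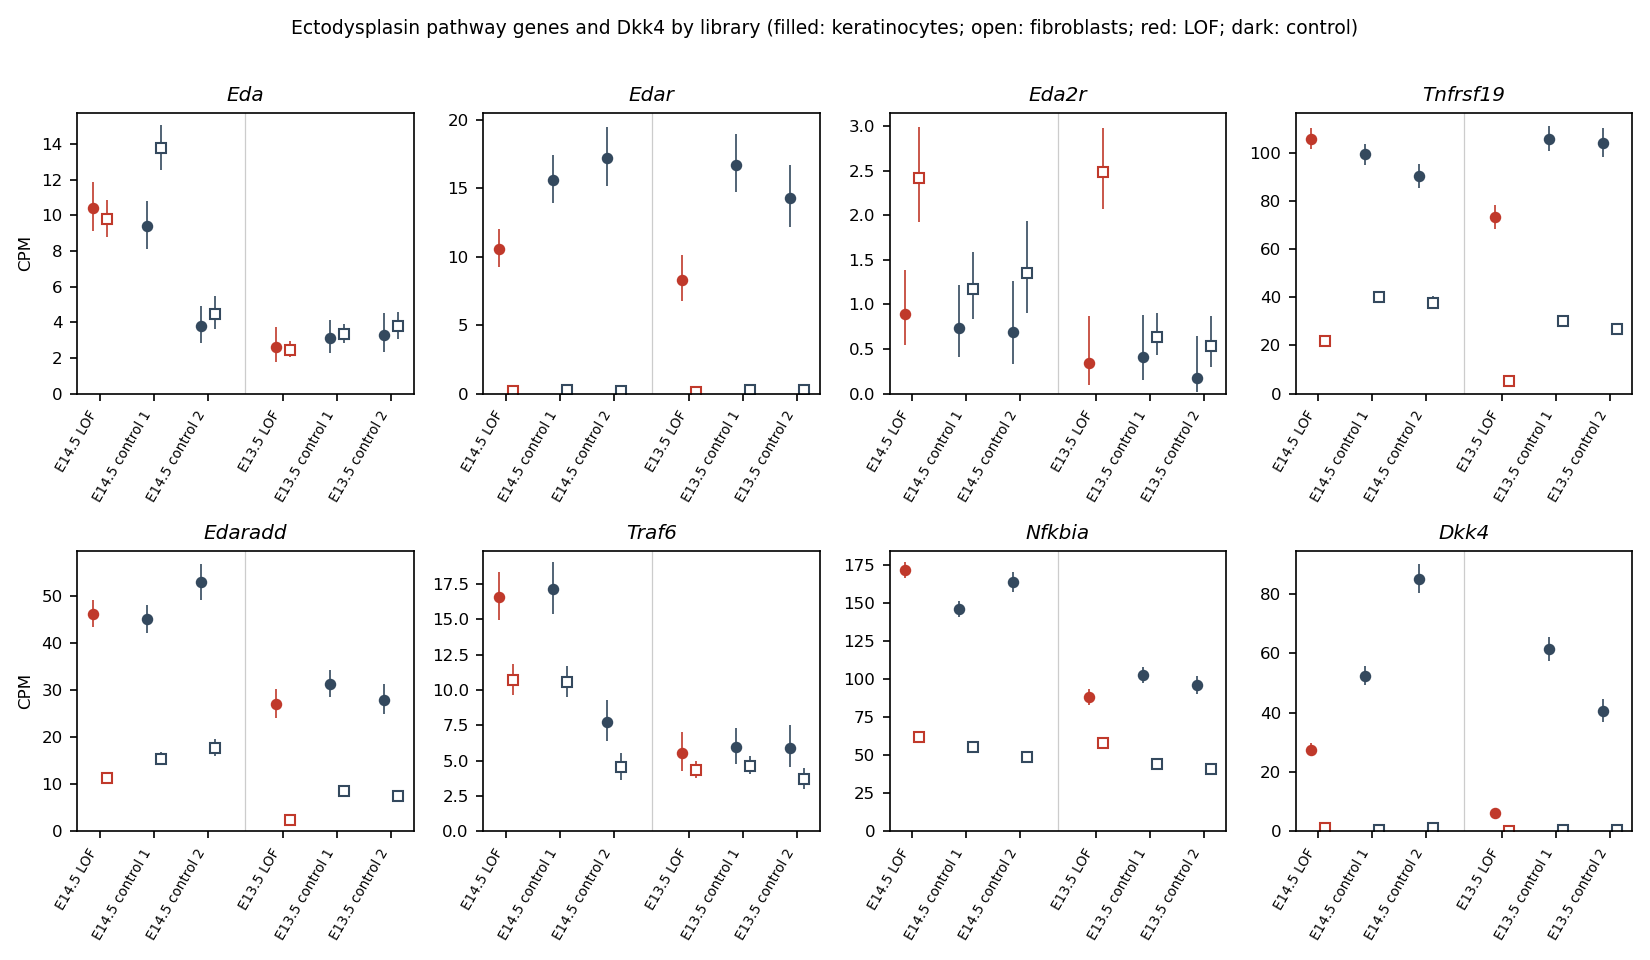
Level of each gene (CPM, exact Poisson 95% intervals) in keratinocytes (filled) and fibroblasts (open) of every library, LOF in red and controls in dark colour. Edar and Dkk4 are lower in both LOF keratinocyte libraries than in the controls of the same stage, and Tnfrsf19 and Edaradd are lower in LOF fibroblasts.

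Within the epidermis of the 3 E14.5 libraries, suprabasal cells, which have left the basal layer, were split from other keratinocytes by at least 10 UMIs of Krt1 and Krt10. They numbered 163 in LOF and 227 and 116 in controls. They had also passed the keratinocyte threshold, so suprabasal cells with few UMIs of Krt5, Krt14, Krt15 and Epcam are not among them. With a keratinocyte threshold of 20 UMIs they numbered 57 in LOF and 86 and 52 in controls. Edar fell to 0.915 CPM in suprabasal LOF cells, against 11.6 in the other LOF keratinocytes. In controls it was 0.557 and 1.23 in suprabasal cells, against 18.8 and 19.2 in the others. Its log2 difference was -4.32 ± 0.35 (edgeR adjusted p = 2.53e-17). With 2 residual degrees of freedom, the p-values of this comparison rest also on spread pooled over genes. Dkk4 had no UMI in suprabasal LOF cells and 1.11 and 1.23 CPM in suprabasal control cells, against 30.6 in other LOF keratinocytes and 63.4 and 95.6 in other control keratinocytes (log2 difference -6.18 ± 0.25, adjusted p = 1.79e-32).

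Of the 7 members tested, 6 were lower in suprabasal cells and Traf6 was higher, where 51.5% of 11950 genes were called, 25.3% higher and 26.2% lower. Edaradd differed by -2.38 ± 0.15, Tnfrsf19 by -1.78 ± 0.09, Nfkbia by -1.53 ± 0.08 and Eda by -1.22 ± 0.27. Traf6 stood at 35.2, 29.2 and 15.4 CPM in suprabasal cells of E14.5 LOF and controls 1 and 2, against 14.5, 14.5 and 6.75 in the others (1.16 ± 0.15, adjusted p = 5.05e-10). Of 20 tested genes of Edar and NF-kB signalling, 9 were lower, among them the NF-kB subunit Relb (-3.23), and 1 was higher.

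Dkk4-positive keratinocytes, those with at least 1 Dkk4 UMI, numbered 90 of 2104 in E14.5 LOF, against 87 of 1449 and 133 of 1338 in E14.5 controls. At E13.5 they numbered 18 of 713 in LOF, against 157 of 974 and 122 of 1019 in controls. They were compared with the Dkk4-negative keratinocytes of the same library in the 5 libraries with at least 20 of them, which leaves out E13.5 LOF. Depth was similar on both sides: median UMIs per cell were 10069.5 and 10246 in positive and negative cells of E14.5 LOF, and 15608 and 14640 in those of E13.5 control 1.

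Edar had the largest log2 difference of the 6 members tested besides Dkk4. It stood at 61.8 CPM in positive cells of E14.5 LOF, against 8.40 in negative cells of that library. Positive cells of E14.5 controls held 98.1 and 66.6, against 10.4 and 11.7 in negative cells. In E13.5 controls the positive cells held 33.3 and 22.7, against 13.3 and 13.1 in negative cells. Positive cells were higher in 5 of 5 libraries, and the log2 difference was 2.22 ± 0.43, but edgeR did not call it (adjusted p = 0.0645). DESeq2 called it (adjusted p = 4.93e-11), as did edgeR with stricter class limits (0.0176).

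Nfkbia and Tnfrsf19 were called. Nfkbia stood at 477 CPM in positive cells of E14.5 LOF, against 158 in negative cells. It stood at 370 and 291 in positive cells of E14.5 controls, against 132 and 149, and at 153 and 135 in those of E13.5 controls, against 91.8 and 90.5. The log2 difference was 1.09 ± 0.16 (edgeR adjusted p = 0.0183). Tnfrsf19 was 187 in positive cells of E14.5 LOF, against 103, then 154 and 123 in positive cells of E14.5 controls, against 96.2 and 87.0, and 112 and 113 in those of E13.5 controls, against 105 and 103. Its log2 difference was 0.45 ± 0.10 (adjusted p = 0.0136).

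Each call was lost without some of the E14.5 libraries. Tnfrsf19 missed the threshold without E14.5 control 1 (adjusted p = 0.0897), E14.5 control 2 (0.0694) or E14.5 LOF (0.0772), and Nfkbia without E14.5 control 1 (0.0653) or with stricter class limits (0.0513). Both held without the controls numbered 2 (0.0476 for Tnfrsf19, 0.00818 for Nfkbia) and with suprabasal cells left out of both sides (0.0184 and 0.00304). Edaradd (0.32 ± 0.11, adjusted p = 0.0847), Eda (-0.73 ± 0.33, 0.215) and Traf6 (0.13 ± 0.19, 0.777) did not pass, although Edaradd did without the controls numbered 2 (0.0401) or without E13.5 control 2 alone (0.0345). Eda2r was too rare to test. Across all genes, 727 of 11958 were called (6.08%), 3.09% higher and 2.99% lower.

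**Figure D3:**
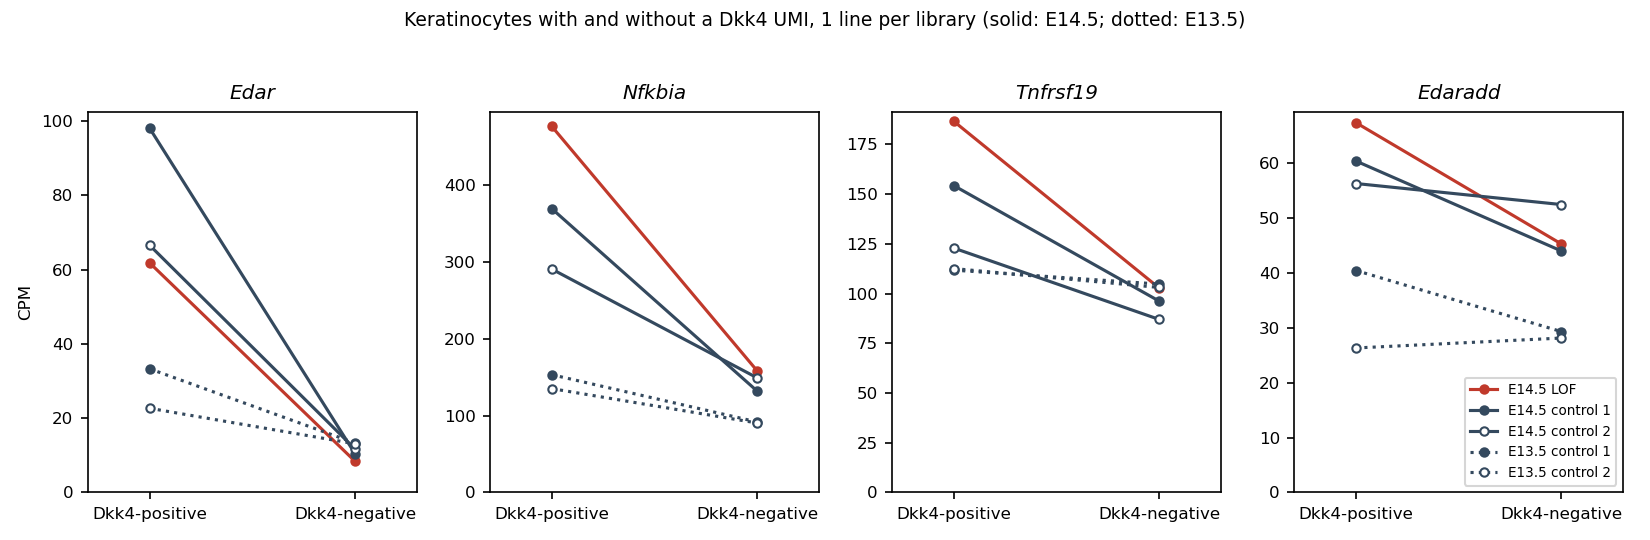
Level of Edar, Nfkbia, Tnfrsf19 and Edaradd (CPM) in keratinocytes with a Dkk4 UMI (left point) and without one (right point), 1 line per library. The lines fall more steeply in the 3 E14.5 libraries than in the 2 E13.5 controls for Edar, Nfkbia and Tnfrsf19.

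In these libraries the ratio of positive to negative cells was higher in each E14.5 library than in either E13.5 control for Edar, Nfkbia and Tnfrsf19. How many of all genes had this order of libraries was not counted. A term for the difference between stages, added after these values were seen, gave 1.70 ± 0.23 for Edar (edgeR adjusted p = 1.33e-10), 0.62 ± 0.12 for Nfkbia (4.41e-05) and 0.51 ± 0.13 for Tnfrsf19 (0.00369), where 6.21% of 11958 genes were called, 3.24% with a wider and 2.97% with a smaller difference at E14.5. Of the 15 placode and Edar-responsive genes, 9 were called with a higher value at E14.5, among them Ltb, the lymphotoxin beta gene (3.23), and Sostdc1 with a lower one (-0.57). As these values prompted the term, its p-values describe them and are no independent support. With 3 residual degrees of freedom, these p-values rest also on spread pooled over genes. Edar kept this call with DESeq2 (7.37e-05) and without each library in turn, where its adjusted p ranged up to 0.000153. Nfkbia (0.0651) and Tnfrsf19 (0.115) missed the threshold with DESeq2. The E14.5 side of this term held 1 LOF library and the E13.5 side none. Without E14.5 LOF the values were 1.70 for Edar, 0.50 for Nfkbia and 0.42 for Tnfrsf19. Tnfrsf19 was not called without E14.5 LOF (adjusted p = 0.0666), E13.5 control 1 (0.244) or E13.5 control 2 (0.166), and Nfkbia was not called without E13.5 control 2 (0.0539).

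At single-cell level and equal depth, 20 of 97 Dkk4-positive cells of E14.5 control 2 had an Edar UMI (20.6%, exact 95% interval 13.1 to 30.0%), against 51 of 1234 negative cells (4.13%, 3.09 to 5.40%). In E14.5 control 1 the shares were 26.7% of 60 positive and 3.31% of 1389 negative cells, and in E14.5 LOF 13.4% of 67 and 3.11% of 2027. In E13.5 controls they were 12.99% of 77 and 9.84% of 61 positive cells, against 4.24% and 4.18% of negative cells. Nfkbia was detected in 79.1% of positive and 32.3% of negative cells of E14.5 LOF, in 68.3% and 58.8% of positive cells of E14.5 controls, against 27.4% and 30.8% of negative cells, and in 39.0% and 31.1% of positive cells of E13.5 controls, against 22.6% and 21.5%. Among these 5 libraries, the exact intervals of positive and negative cells overlapped for Edar and Nfkbia only in E13.5 control 2. Tnfrsf19 was detected in 41.8% of positive and 26.9% of negative cells of E14.5 LOF, whose intervals did not overlap. They overlapped in the E14.5 controls (33.3% and 26.8%, against 26.1% and 23.7%) and the E13.5 controls (35.1% and 29.5%, against 25.0% and 28.3%). Most Edar-positive cells had no Dkk4 UMI at this depth. The share that had one was 12.5% to 28.2% in the 3 E14.5 libraries and 20.8% and 13.04% in E13.5 controls 1 and 2.

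By the rule for named genes, the 10 largest rises in Dkk4-positive cells were the hedgehog ligand Shh (log2 difference 5.32 ± 0.43), the growth factor Fgf20 (4.57 ± 0.21), the transcription factors Ascl4 (3.74) and Myb (3.33), the neurotrophin Bdnf (3.36), the parathyroid hormone-related peptide Pthlh (3.00), the ligand Bmp2 (2.88), the basement membrane gene Frem1 (2.71), Rasgef1b (2.59) and the hyaluronan synthase Has3 (2.47). Fgf20 was 142 CPM in positive cells of E14.5 LOF, against 4.01 in negative cells, and 29.3 and 16.8 in positive cells of E13.5 controls, against 2.12 and 1.73. Shh was near 0 in both kinds of cell at E13.5 (0.396 and 0.731 in positive cells) and reached 38.6 in positive cells of E14.5 LOF and 40.2 and 22.6 in those of E14.5 controls.

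Of 15 listed placode and Edar-responsive genes, 9 rose in Dkk4-positive cells, where 3.09% of all genes were called higher and 2.99% lower, among them Lhx2 (4.83) and Lef1 (0.92), and Sostdc1, a secreted BMP and Wnt antagonist, fell (-1.66). The median log2 difference of the list was 2.88, against -0.02 over all genes. Of 21 tested genes of Edar and NF-kB signalling, 8 rose and none fell, with a median of 0.30. They were Tnfaip3, an NF-kB feedback inhibitor (2.38, adjusted p = 0.00056), Bcl3 (1.69), Relb (1.67), Nfkb2 (1.37), Traf4 (1.25), Rel (0.82), Ikbkb (0.64) and Nfkbib (0.59). Of 7 tested genes of other TNF family members, the ligand gene Tnf rose by 3.37, and the receptor genes Ltbr (-1.33) and Tnfrsf1a (-0.37) fell. Of 6 tested genes of the Dickkopf family and receptors, 1 was called, Kremen2, which rose by 0.67. None of 8 proliferation genes was called, with a median of -0.03. The 5 named falls were Them5 (-3.23), Elovl4 (-3.17), the water channel Aqp3 (-2.45), Smtnl2 (-2.20) and Mgst1 (-2.09). Positive cells included 0, 3 and 2 suprabasal cells in E14.5 LOF and controls 1 and 2, of 163, 227 and 116 in all.

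Stage was compared between the 2 E14.5 and 2 E13.5 control libraries. No member was called in keratinocytes, where 31 of 12472 genes were (0.249%, with 0.176% higher and 0.0722% lower), or in fibroblasts, where 35 of 14346 were (0.244%, with 0.174% higher and 0.0697% lower). Nfkbia stood at 146 and 164 CPM in E14.5 control keratinocytes, against 102 and 95.9 at E13.5 (log2 difference 0.70 ± 0.21, edgeR adjusted p = 0.238), and Edaradd at 44.9 and 52.8, against 31.2 and 27.9 (0.79 ± 0.26, 0.274). In fibroblasts Edaradd stood at 15.4 and 17.6, against 8.47 and 7.57 (1.08 ± 0.27, 0.133), and DESeq2 called it (0.0369). The E14.5 values lay above the E13.5 values in each of these, and also for other uncalled members, such as Eda in both classes. With 2 libraries a stage an exact two-sided permutation p cannot fall below 0.333. The share of all genes with this order was not counted. Edar and Dkk4 in keratinocytes did not separate by stage, at 0.14 ± 0.27 and 0.51 ± 0.36. Leaving out E14.5 control 2 gave calls for Eda and Traf6 in both classes (1.52 and 1.5 in keratinocytes, 1.88 and 1.27 in fibroblasts), and for Edaradd in fibroblasts (0.87). Leaving out E14.5 control 1 called Edaradd in fibroblasts (1.26). Each of these fits has a single E14.5 library, which is assumed to vary like the E13.5 pair, and control 1 is the E14.5 control with high Eda and Traf6 counts. Of 12 dissociation stress genes, 11 were higher at E14.5 in each class and none was called, with a median log2 difference of 1.39 in keratinocytes and 1.03 in fibroblasts, against 0.04 and 0.03 over all genes. The part of that in the Nfkbia values was not tested.

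Dkk4-positive cells held more Dkk4 UMIs each at E14.5, with no overlap between the libraries of the 2 stages. Positive control keratinocytes averaged 12.2 and 9.29 Dkk4 UMIs per cell at E14.5, against 5.79 and 3.74 at E13.5. The thinned share of positive cells was 4.14% and 7.29% in E14.5 controls, against 7.91% and 5.99% in E13.5 controls, ranges that overlap. With stricter class limits it was 3.42% and 4.85% in E14.5 controls, against 6.97% and 5.44% in E13.5 controls. Those ranges do not overlap, so the order of the stages depends on the class limits. With 2 libraries a stage, the smallest exact two-sided permutation p is 0.333. No test was made of these shares or of the UMIs per positive cell.

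Genotype was compared over all 6 libraries with stage as a covariate. Dkk4 in keratinocytes stood at 27.6 CPM in E14.5 LOF (exact Poisson interval 25.4 to 29.8), against 52.4 and 85.1 in E14.5 controls. It stood at 6.02 in E13.5 LOF (4.71 to 7.60), against 61.5 and 40.7 in E13.5 controls. The 71 Dkk4 UMIs of E13.5 LOF keratinocytes came from 18 cells, and 25 of them from a single cell. Poisson intervals treat UMIs as independent, so they are too narrow for such clustered counts. Both LOF libraries lay below every control library. The log2 difference was -2.10 ± 0.49. It was not called by edgeR (adjusted p = 0.986, unadjusted p = 0.0041), which called 0 of 12747 genes (0%) and found 217 at an unadjusted p under 0.05. DESeq2 called 3 genes, Dkk4 among them (adjusted p = 0.0136). Without the controls numbered 2 the difference was -1.81 (edgeR adjusted p = 0.873), without E13.5 LOF -1.37 and without E14.5 LOF -3.09.

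The share of cells with a Dkk4 UMI was lowest in the LOF library of each stage. With all UMIs it was 4.28% in E14.5 LOF, against 6.00% and 9.94% in controls, and 2.52% in E13.5 LOF, against 16.1% and 12.0% in controls. At equal depth the share was 3.20% in E14.5 LOF (exact interval 2.49 to 4.05%), against 4.14% (3.17 to 5.30%) and 7.29% (5.95 to 8.82%) in controls. At E13.5 it was 0.982% in LOF (0.396 to 2.01%), against 7.91% (6.29 to 9.78%) and 5.99% (4.61 to 7.63%) in controls. The LOF interval at E13.5 lay below both controls, while at E14.5 it overlapped that of control 1. In fibroblasts the share was 0% to 0.329%, where a count of 0 of 4410 thinned E13.5 LOF cells allows up to 0.0680% by a floor of 3 counts and 0.0836% by the exact interval. With all UMIs, 1 of these cells had a Dkk4 UMI. Positive LOF cells averaged 6.84 Dkk4 UMIs at E14.5, against 12.2 and 9.29 in controls, and 3.94 at E13.5, against 5.79 and 3.74.

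**Figure D4:**
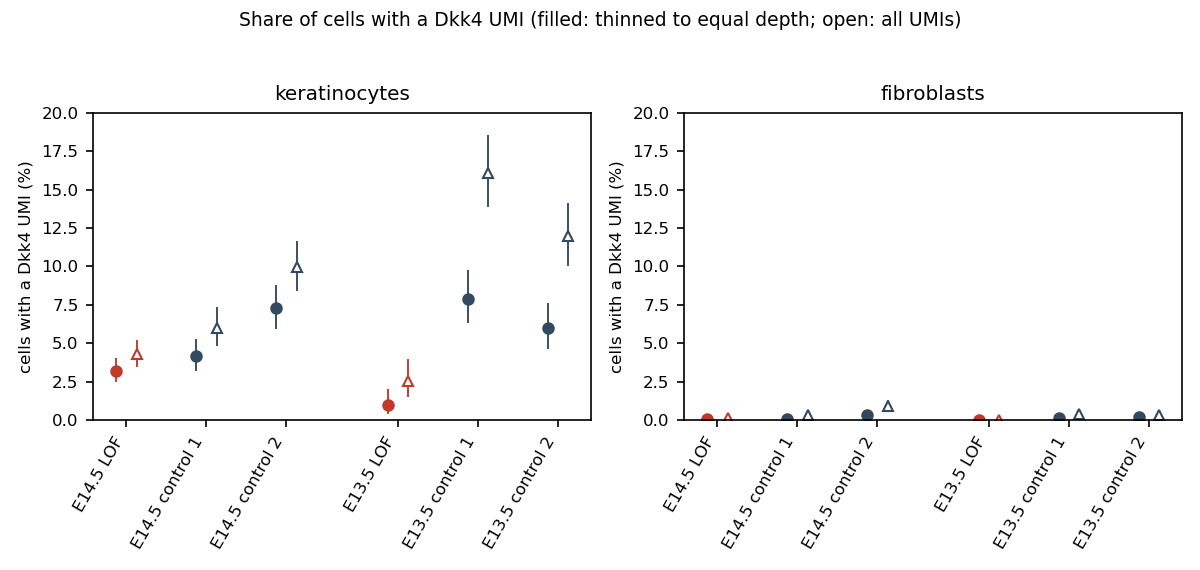
Share of keratinocytes and fibroblasts with a Dkk4 UMI in every library (%, exact binomial 95% intervals), after thinning each cell to equal depth (filled) and with all UMIs (open). E13.5 LOF keratinocytes, at 0.982%, lie below the 7.91% and 5.99% of the E13.5 controls, and fibroblasts lie near 0.

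Edar had a lower value in the LOF keratinocytes of each stage than in either control, with a log2 difference of -0.78 ± 0.20, and was not called (edgeR adjusted p = 0.986). The other keratinocyte differences between genotypes were small, from -0.18 for Tnfrsf19 to 0.26 for Eda, and none was called. The difference between stages in the LOF effect did not pass for any member, with 1.72 ± 0.66 for Dkk4 (adjusted p = 0.9999). No gene was called for it (0%) in keratinocytes, where 93 had an unadjusted p under 0.05 and DESeq2 called 1, or in fibroblasts, where 199 did and DESeq2 called 5.

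In fibroblasts, the class in which the Cre driver acts, Tnfrsf19 had the widest gap. It stood at 21.9 CPM in E14.5 LOF, against 40.2 and 37.8 in controls, and at 5.29 in E13.5 LOF, against 30.3 and 26.9. Both LOF values lay below all 4 controls. At equal depth 5.57% of E14.5 LOF fibroblasts had a Tnfrsf19 UMI, against 11.7% and 10.2% in controls, and 1.59% of E13.5 LOF fibroblasts, against 7.79% and 6.31%. With all UMIs these shares were 13.3%, 28.4% and 23.0% at E14.5 and 4.15%, 21.6% and 17.1% at E13.5, in LOF, control 1 and control 2. The log2 difference was -1.61 ± 0.38 (edgeR adjusted p = 0.367), and DESeq2 called it (0.00157). Edaradd stood at 11.3 in E14.5 LOF, against 15.4 and 17.6, and at 2.41 in E13.5 LOF, against 8.47 and 7.57 (-1.15 ± 0.31, edgeR 0.412, DESeq2 0.0360). Eda2r went the other way, at 2.42 in E14.5 LOF, against 1.17 and 1.35, and 2.49 in E13.5 LOF, against 0.636 and 0.528 (1.48 ± 0.36, edgeR adjusted p = 0.382).

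These 3 fibroblast differences were not called by edgeR, which called 2 of 14918 genes (0.0134%), both higher. Without the controls numbered 2 the values were -1.63 for Tnfrsf19, -1.05 for Edaradd and 1.52 for Eda2r, none called. Without E13.5 LOF they were -0.91, -0.63 and 0.86, and without E14.5 LOF -2.47, -1.77 and 2.05. A different number of fibroblasts that express a gene and a different amount of its RNA per cell cannot be told apart in these sums. In the E14.5 libraries, condensate cells (at least 2 UMIs of Sox2, Sox18 and Foxd1) held more Tnfrsf19 than other fibroblasts, at 45.3 CPM in LOF, against 21.4 in other LOF fibroblasts, and at 64.4 and 61.2 in controls, against 39.3 and 37.4 in other control fibroblasts. They numbered 66 in LOF and 133 and 35 in controls. In the other fibroblasts the LOF value lay below both controls, and the part of condensate cells in the LOF difference was not tested. Summed keratinocyte markers in fibroblasts were 115.8 CPM in E14.5 LOF, against 87.8 and 114.5 in controls, and 15.1 in E13.5 LOF, against 13.9 and 14.5, so LOF was the highest library of each stage, and their part in the result was not tested. Proliferation genes had a median log2 difference of -0.59 in LOF fibroblasts, 0 of 8 called. Genes of the placode and Edar-responsive list were not called in either class. Their median log2 difference was -0.48 in keratinocytes and -0.47 in fibroblasts, against 0.01 and 0.02 over all genes.

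Genes with the most similar pattern over 53 sums of a class and a library, by Pearson's r of log2(CPM + 1) among 11814 genes, were Wnt10b (0.90), Hoxc13 (0.89), Krt14 (0.88), Spint1 (0.88) and Edn2 (0.87) for Edar. For Dkk4 they were Fermt1 (0.87), Cdcp1 (0.87), Krt14 (0.86), Macrod2os1 (0.85) and Cpsf4l (0.85). The sums of a library share its depth, and keratinocyte sums were high and the rest low for each of these pairs, so r is given as a description. Within the 6 keratinocyte sums, r with Dkk4 was 0.93 for Cpsf4l and 0.055 for Cdcp1.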

How the data were processed

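UMIs were counted in 6 droplet libraries of embryonic skin. The authors deposited, for each library, whole-number UMI counts of genes by barcodes, with no scaling seen in the values. Per the submitters' processing notes, Cell Ranger and Seurat were used with mm10 (GRCm38), and versions and settings are not given in the sources used here. Of 41594 barcodes, 40653 had 1000 or more UMIs, 500 or more genes and no more than 10% of UMIs from mitochondria, and only those were used. Classes came from marker sums. Cells past the keratinocyte and another sum, or past 2 sums other than the fibroblast one, were left out. No doublet caller was run. Counts were summed per library and class and tested with edgeR 4.0.16 (robust quasi-likelihood, TMM, filterByExpr) in R 4.3.3, adjusted by Benjamini-Hochberg over all genes tested, with a call at adjusted p under 0.05. DESeq2 1.42.0 was an alternative. Sums of fewer than 20 cells were not used. Shares used cells thinned to 3000 UMIs and exact binomial intervals at 95%. The test scripts were tested on simulated data. Genes named beside the members were the largest called changes with at least 20 CPM on the higher side and 1 direction in every library. The members, lists and rules were chosen with earlier results of these data known. The lists were 22 genes of Edar and NF-kB signalling, 10 of other TNF family members, 15 placode and Edar-responsive genes, 8 of the Dickkopf family and receptors, 12 dissociation stress and 8 proliferation genes.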

Additional observations from a re-analysis of the deposited data

Results flagged for a closer look

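The eGFP row was counted in fibroblasts of libraries labelled WT and of LOF libraries, outside the measurement of the pathway genes. It stood at 319.5 CPM in E14.5 LOF, above the 5.25 and 92.89 of E14.5 controls 1 and 2, and at 348.7 in E13.5 LOF, above the 3.03 and 118.3 of E13.5 controls 1 and 2. Within the controls of a stage, the libraries numbered 2 lay above those numbered 1.

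The difference between Dkk4-positive and Dkk4-negative keratinocytes differed between stages for Edar by 1.70, for Nfkbia by 0.62 and for Tnfrsf19 by 0.51 on the log2 scale (E14.5 minus E13.5; edgeR, 5 libraries). Positive cells were higher in 5 of 5 libraries for each of these genes, and the E14.5 libraries showed the wider gap. How many of all genes had such an order was not counted. The term for this difference was added after these values were seen, and only its E14.5 side held a LOF library. Nfkbia and Tnfrsf19 were not called for it with DESeq2.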

How the results depend on the processing

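Of 652 values of single genes recomputed under alternatives, 205 belonged to genes called as reported. Of these, 188 stayed called, 17 did not and 0 changed sign. All 84 for keratinocytes against fibroblasts and all 63 for suprabasal cells stayed called. Of the 447 others, 20 became called and 24 changed sign without a call. Counts of called genes moved most for stage and genotype. Shares of cells were recomputed without thinning and with stricter class limits. Of these, 46 left the exact interval of the reported share and 38 stayed within it. Causes were not tested.

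In keratinocytes, stage called 31 genes, against 443 with DESeq2, 52 with RLE size factors, 728 with no filter, 1238 with a 3-level grouping inferred in an earlier analysis of these data and 72 to 2123 without each library. In fibroblasts it called 35, against 967, 96, 644 and 1828 with the same 4 settings, 0 with stricter class limits, 0 with cells past 2 limits kept and 393 to 3685 without each library. Genotype called 0 genes in keratinocytes, against 3 with DESeq2, 3 with the grouping and 5 without both controls numbered 2. In fibroblasts it called 2, against 276, 291 and 265 with those settings, 0 with stricter limits, 0 with cells past 2 limits kept and 0 to 1 without each library. The difference of the genotype effect between stages called 1 gene in keratinocytes and 5 in fibroblasts with DESeq2, and 0 to 5 and 0 to 16 without each library. The Dkk4 comparison called 476 genes with stricter limits, 1128 with at least 2 Dkk4 UMIs and 251 to 994 without each library, and its difference between stages 229 with DESeq2, 327 with stricter limits and 272 to 1047 without each library. The suprabasal comparison called 4101 with DESeq2 and 3978 with stricter limits.

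Signs that changed were all of uncalled values. They were Tnfrsf19 by stage in keratinocytes with stricter limits (0.041), Eda in keratinocytes against fibroblasts with cells past 2 limits kept (0.047), and, without both controls numbered 2 and with the grouping, Traf6 (-0.030 and -0.025) and Nfkbia (0.051 and 0.053) by genotype in keratinocytes and Traf6 (-0.026 and -0.027) by genotype in fibroblasts. Without each library, values spanned -0.022 to 0.28 for Edar by stage in keratinocytes, -0.18 to 0.11 for Nfkbia, -0.52 to 0.13 for Tnfrsf19, -0.29 to 0.66 for Eda and -0.11 to 0.41 for Traf6 by genotype in keratinocytes, -0.57 to 0.11 for Eda by genotype in fibroblasts, -0.12 to 0.059 for Eda between the classes and -0.015 to 0.21 for Traf6 with Dkk4.

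With the replicate number as a block, stage called 931 genes in keratinocytes and 856 in fibroblasts, and genotype 0 in fibroblasts. Under the block, Traf6 was -0.027 and Nfkbia 0.039 by genotype in keratinocytes, and Traf6 -0.021 in fibroblasts. Deviations of same-numbered controls correlated at 0.35 and 0.34 in the 2 classes over only 2 pairs, so the numbers are not shown to pair the libraries. With 1 LOF library a stage, the fit assumes that it varies like the controls. UMI depth limits Eda2r and Edar outside keratinocytes. The settings without both controls numbered 2, without suprabasal cells and by stage for Dkk4 were chosen after seeing the data.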

Other observations

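The secreted Dickkopf genes Dkk1, Dkk2 and Dkk3 were lower in keratinocytes than in fibroblasts, the opposite side from Dkk4. The log2 difference was -6.20 ± 0.31 for Dkk1 (edgeR adjusted p = 9.15e-07), -6.52 ± 0.15 for Dkk2 and -2.40 ± 0.38 for Dkk3. Kremen2, a Dickkopf receptor, was higher in keratinocytes (7.10 ± 0.22). Of the 8 genes of the Dickkopf family and receptors, 3 were called higher and 4 lower, where 75% of all genes were called. Of 10 other TNF family genes, 3 were higher in keratinocytes, among them Ltb (5.54) and Tnf (4.07), and 5 were lower, among them Ngfr (-5.66) and Tnfsf11 (-5.18), where 34.1% of all genes were called higher and 40.9% lower, so the count of calls lies near that of all genes.

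Of 12 dissociation stress genes, 1 rose and 1 fell with Dkk4, with a median of -0.08, where 6.08% of all genes were called. In the 3-library comparison of suprabasal cells, 13 of 14 placode and Edar-responsive genes were lower and 1 was higher, with a median log2 difference of -3.59, and 7 of 8 proliferation genes were higher, where 25.3% of all genes were called higher and 26.2% lower.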
